A study of Rattus norvegicus with 12 samples.

Results

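The transcripts of 7 GABA-A receptor subunits were followed in rat hippocampal neuron cultures after oxygen-glucose deprivation (OGD), an in vitro form of ischemia. The genes were *Gabra2*, *Gabra3*, *Gabra4* and *Gabra5*, which code for alpha subunits, *Gabrb1* and *Gabrb2*, which code for beta subunits, and *Gabrd*, which codes for the delta subunit. They were found through the RefSeq accession of the array probes and make up 7 of 15154 named genes, with 7 of the 30367 probes that are not controls. Each had 1 probe on 1 spot, so that a second probe could check none of them, and each was well above background and below saturation on all 12 arrays.

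The cultures came from the hippocampi of Wistar rats at embryonic day 18, were kept for 14 to 15 days in vitro and still held some glial cells. They were deprived of oxygen and glucose for 2 h in a buffer with sucrose in place of glucose (OGD) or kept in the same buffer with glucose and in air with CO2 (Ctrl), and then recovered in conditioned medium for 7 h or 24 h. Each of the 4 groups (Ctrl 7 h, OGD 7 h, Ctrl 24 h and OGD 24 h) had 3 one-color Agilent arrays, 1 for each of 3 independent cultures. The comparison asks whether inhibitory receptor transcripts differ from control at a time before, and at a time after, the onset of delayed neuronal death.

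GABA-A receptors are chloride channels gated by GABA, the main inhibitory transmitter of the adult brain, and each channel is a ring of 5 subunits. Most hold alpha and beta subunits with a gamma subunit, which goes with receptors at synapses. A delta subunit can take the place of gamma, and receptors with delta, often together with alpha4, or with alpha5 lie largely outside synapses and carry tonic inhibition. The beta subunits carry part of the GABA binding site together with alpha.

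All values below are normalized log2 signals, that is the log2 intensity of the probe minus the median log2 intensity of its array, and a difference of 1 is a 2-fold difference in signal. Signals of different probes are not compared with each other. Arrays of a group are given in the order of replicates 1, 2 and 3. Differences between groups come from 1 linear model over all 12 arrays (limma), with Benjamini-Hochberg adjustment over all 30367 probes. A probe is called lower or higher at an unadjusted limma p under 0.05, and a stricter call adds a fold of at least 2. No probe on the array reached an adjusted p under 0.05 for OGD against Ctrl, where the lowest values were 0.117 at 7 h and 0.209 at 24 h, so that every call here is an unadjusted one. With 3 arrays against 3, an exact two-sided permutation test cannot go below p = 0.10, which is the value it gives wherever the groups do not overlap.

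One array stood apart. OGD 24 h replicate 1 had a median intensity of 130.6, against 234.2 to 660.3 on the other arrays, and the lowest mean correlation with its own group, 0.963. The arrays had 78.4% to 87.1% of their spots well above background. Each of 6 slides held the Ctrl and the OGD array of 1 time and replicate number. The slide of the 24 h replicates 1 was scanned with 176.6 min between its 2 arrays, the 7 h slides of replicates 1 and 2 with 211.1 and 211.3 min, and the arrays of the other slides were scanned together. The part of this array's low intensity, or of the scan times, in the results was not tested, and the 24 h results are given with and without it.

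The promoters of *Gabra3* and *Gabrd* are shown because these members were called lower at 24 h whichever of the 12 arrays was left out, as described further on. Each run gives the 250 bases before the annotated start in the RefSeq annotation of the GRCr8 build, 5′ to 3′ on the strand of the gene, with GC boxes (GGGCGG on either strand) in capitals.
Gabra3, chrX:155543871-155544120, minus strand: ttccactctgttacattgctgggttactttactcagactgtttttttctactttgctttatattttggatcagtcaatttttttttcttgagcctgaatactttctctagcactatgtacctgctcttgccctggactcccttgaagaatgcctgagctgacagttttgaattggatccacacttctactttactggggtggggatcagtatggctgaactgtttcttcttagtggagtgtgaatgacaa
Gabrd, chr5:171252710-171252959, minus strand: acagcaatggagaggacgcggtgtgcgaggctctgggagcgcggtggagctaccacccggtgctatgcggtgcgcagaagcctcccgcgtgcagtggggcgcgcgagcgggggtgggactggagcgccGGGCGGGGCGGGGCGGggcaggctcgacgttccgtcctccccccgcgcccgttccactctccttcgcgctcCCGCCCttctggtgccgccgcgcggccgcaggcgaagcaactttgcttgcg
The *Gabra3* window was 40.4% G or C with 0 CpG dinucleotides and no GC box, whereas the *Gabrd* window was 74.0% G or C with 35 CpG dinucleotides and 4 GC boxes, at 122, 117, 112 and 51 bases before the start. Of the 6 members with a promoter entry (all but *Gabra2*), GGGCGG was in 3 (*Gabra4*, *Gabra5* and *Gabrd*), against 30.5% of 33469 rat promoter windows of the same length. TATAAA was in 1 (*Gabra3*, 194 bases before the start) against 12.9%, and the E-box CANNTG in 1 (*Gabra5*) against 65.5%. The left and right parts of the RE1 element, which the repressor REST binds, were searched as TTCAGCACC, in none of the members and 0.305% of all windows, and as GGACAG, in *Gabrb1* and 18.2% of all. The cAMP response element TGACGTCA (1.59% of all) and its core TGACG (18.2%), which lies within it, were in none. Both strands were read. A match is a run of letters, not a measured binding site, and the 2 members shown differ widely in base composition.

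At 24 h after OGD, all 7 members had a lower mean signal than in Ctrl, by 0.68 to 1.31 on the log2 scale (6 of 7 did under normexp background correction, where *Gabrb2* was at 0.0684), and 5 of 7 were called lower (*Gabra2*, *Gabra3*, *Gabrb1*, *Gabrb2* and *Gabrd*), where 6.19% of all probes were. Of these, 2 (*Gabra3* and *Gabrb1*) also had a fold of at least 2, against 1.96% of all probes. The median difference of the members was -0.98, while that of all probes was 0.01. At 7 h, 0 of 7 were called lower (7.03% of all probes were), 0 of 7 with the fold of 2 (1.66% of all), and 6 of 7 had a lower mean, with a median difference of -0.43 against -0.06 over all probes. The call at 24 h depended on the array that stood apart: without it, 2 of 7 members were called lower (*Gabra3* and *Gabrd*), 1 of them (*Gabra3*) with the fold of 2, where 5.77% and 0.606% of all probes were, and the median difference of the members was -0.49. The calls also depended on Ctrl 24 h replicate 1, without which 2 of 7 were called lower (2.49% of all probes were) and 0 with the fold of 2 (0.889%).

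**Figure D1:**
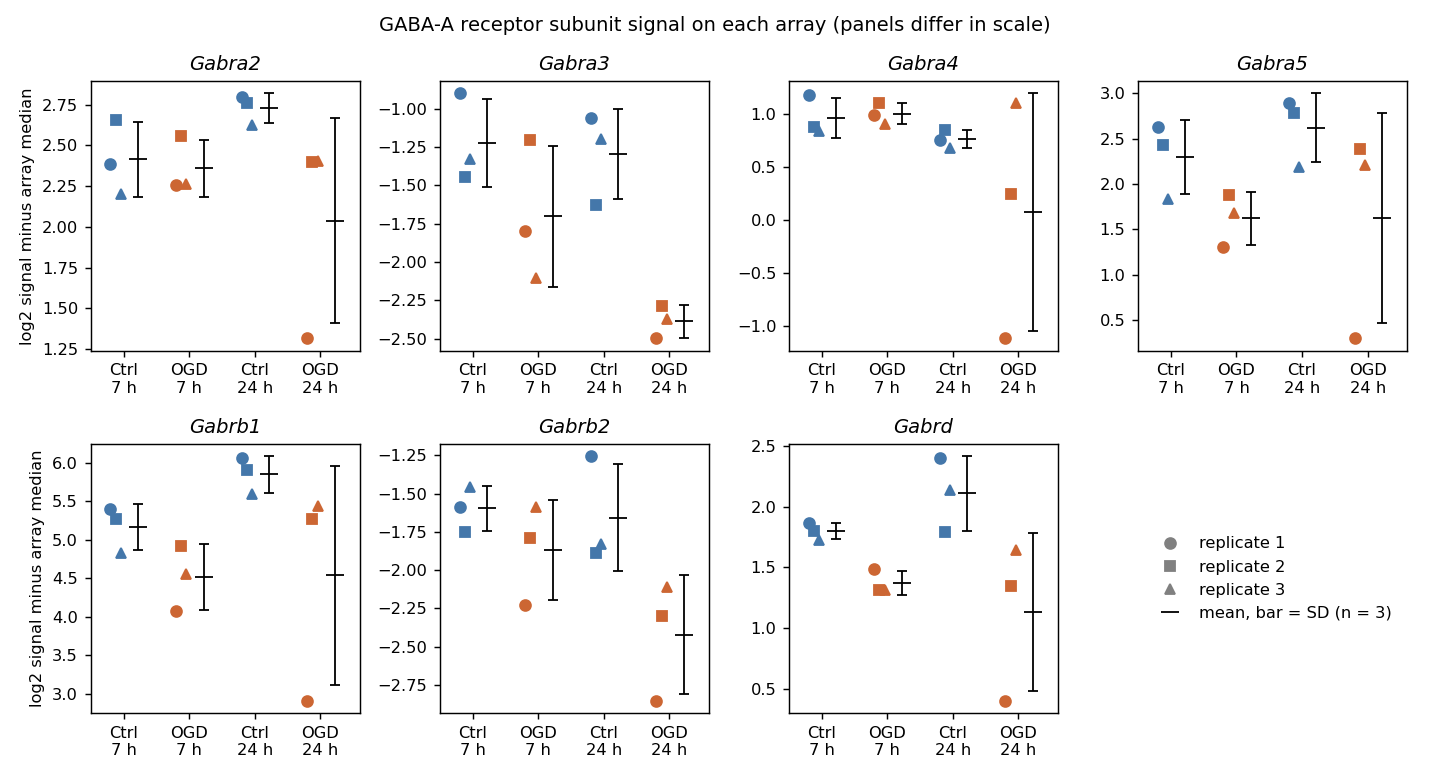
Normalized log2 signal (vertical axis, log2 signal minus the array median) of each of the 7 GABA-A subunits on the 12 arrays, with 1 point per array (blue, Ctrl; orange, OGD; shapes, replicates) and the mean with its SD beside each group. In 5 panels (Gabra2, Gabra3, Gabrb1, Gabrb2 and Gabrd) the 3 OGD arrays at 24 h lay below the 3 Ctrl arrays, and replicate 1 was the lowest OGD 24 h point in all 7 panels, by little for Gabra3.

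*Gabra3*, an alpha subunit found early in development and in a limited set of adult neurons, had the lowest adjusted p of the members. Its signal was -1.06, -1.63 and -1.20 on the Ctrl 24 h arrays and -2.50, -2.28 and -2.37 on the OGD 24 h arrays. The groups did not overlap, and replicate 1 of OGD lay close to the other OGD arrays for this gene. The difference was -1.09 (SE 0.26, 95% confidence interval -1.67 to -0.52, adjusted p = 0.252), which leaves 0.470 of the Ctrl signal. It was -1.03 (adjusted p = 0.436), and still called, without OGD 24 h replicate 1. It was not called with normexp background correction (-0.26) or with scaling to a spike-in probe (-2.12). At 7 h the signal was -0.90, -1.45 and -1.33 in Ctrl and -1.80, -1.21 and -2.11 in OGD, where the second OGD array lay among the Ctrl arrays. The 7 h difference of -0.48 had an interval of -1.05 to 0.10 (adjusted p = 0.494) and was not called.

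*Gabra2* codes for an alpha subunit that is abundant in the hippocampus and often found at the axon initial segment. At 24 h its signal was 2.80, 2.76 and 2.63 in Ctrl and 1.32, 2.40 and 2.40 in OGD. The groups did not overlap, but 2 of the OGD arrays lay near the Ctrl arrays and replicate 1 far below them. The difference was -0.69 (SE 0.28, adjusted p = 0.332) with all arrays and -0.33 (adjusted p = 0.509), which was not called, without OGD 24 h replicate 1. The 7 h mean was 2.41 ± 0.23 (SD, n = 3) in Ctrl and 2.36 ± 0.17 in OGD, and the arrays overlapped. The 7 h difference was -0.06, with a 95% interval of -0.68 to 0.57.

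*Gabra4*, the alpha subunit that often pairs with delta, was the member whose 24 h OGD arrays lay both above and below the Ctrl arrays. At 24 h its signal was 0.76, 0.85 and 0.68 in Ctrl and -1.12, 0.24 and 1.1 in OGD. Replicates 1 and 2 of OGD were below all Ctrl arrays and replicate 3 above all of them. The difference of -0.68 (SE 0.43, 95% interval -1.63 to 0.26, adjusted p = 0.482) was not called, and without OGD 24 h replicate 1 it was -0.09 (adjusted p = 0.928). At 7 h the difference was 0.04, with an interval of -0.91 to 0.98.

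*Gabra5*, the alpha subunit of extrasynaptic receptors in hippocampal pyramidal cells, had 24 h signals of 2.90, 2.78 and 2.19 in Ctrl and 0.30, 2.39 and 2.21 in OGD. The groups overlapped, and replicate 1 of OGD was again far below the rest. The difference was -0.99 (SE 0.49, 95% interval -2.07 to 0.08, adjusted p = 0.394), and -0.33 (adjusted p = 0.714) without that array, neither of which was called. The signal at 7 h was 2.63, 2.43 and 1.84 in Ctrl and 1.31, 1.88 and 1.68 in OGD. The 7 h difference of -0.68 (SE 0.49, adjusted p = 0.597) was the most negative of the members at that time, and its groups overlapped by 1 OGD array.

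*Gabrb1*, a beta subunit, had the largest mean difference at 24 h and the widest spread. Its signal was 6.06, 5.91 and 5.59 in Ctrl and 2.90, 5.27 and 5.44 in OGD. All OGD arrays lay below all Ctrl arrays, replicate 3 by little and replicate 1 by far. The difference was -1.31 (SE 0.56, adjusted p = 0.345), or 0.403 of the Ctrl signal, and -0.49 (adjusted p = 0.517), which was not called, without OGD 24 h replicate 1. Its 95% interval with all arrays, -2.55 to -0.08, ended close to 0. Its 7 h signal was 5.40, 5.27 and 4.83 in Ctrl and 4.07, 4.92 and 4.55 in OGD, with a difference of -0.65 (SE 0.56, adjusted p = 0.662) and 1 OGD array among the Ctrl arrays.

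*Gabrb2*, the beta subunit of many synaptic receptors in the adult brain, had 24 h signals of -1.26, -1.89 and -1.83 in Ctrl and -2.85, -2.30 and -2.11 in OGD. The groups did not overlap. The difference was -0.76 (SE 0.26, 95% interval -1.34 to -0.18, adjusted p = 0.294), and -0.55 (adjusted p = 0.436) without OGD 24 h replicate 1. It was -0.56 (adjusted p = 0.689) without Ctrl 24 h replicate 1, the highest of the Ctrl arrays, and neither of these was called. With normexp background correction the sign turned, to 0.0684. The 7 h mean was -1.60 in Ctrl and -1.87 in OGD, with a difference of -0.27 (95% interval -0.85 to 0.31), and the arrays overlapped.

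*Gabrd*, the delta subunit, had a small spread at 7 h. At 7 h its signal was 1.87, 1.80 and 1.73 in Ctrl and 1.49, 1.31 and 1.31 in OGD. It was the 1 member of 7 whose 3 OGD arrays all lay below the 3 Ctrl arrays at 7 h, as did 15.5% of all probes. The 7 h difference of -0.43 (SE 0.29, adjusted p = 0.574) was not called in the model, whose shared spread over the 4 groups includes the wide OGD 24 h group. Without OGD 24 h replicate 1 the same 7 h differences of *Gabrd* (adjusted p = 0.203), *Gabra5* (adjusted p = 0.179) and *Gabrb1* (adjusted p = 0.167) were called, 3 of 7 members in all, while the share of all probes called lower at 7 h went from 7.03% to 11.6%. At 24 h the signal of *Gabrd* was 2.40, 1.79 and 2.13 in Ctrl and 0.40, 1.35 and 1.64 in OGD. The groups did not overlap, and the difference was -0.98 (SE 0.29, 95% interval -1.62 to -0.33, adjusted p = 0.274). It was -0.61 (adjusted p = 0.436), and still called, without OGD 24 h replicate 1, but it was not called with scaling to a spike-in probe or with the methods' t-test.

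Over the whole set, the 3 OGD arrays at 24 h lay below the 3 Ctrl arrays for 5 of 7 members, the same 5 that were called, where 7.02% of all probes did so. *Gabra3* and *Gabrd* were called lower at 24 h in each of the 12 fits that left out 1 array, with differences of -1.26 to -0.97 and -1.24 to -0.61. Fits that left out a 7 h array kept the same 24 h difference and changed only its estimated spread. The other members called lower with all arrays each lost the call in at least 2 of the 12 fits.

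**Figure D2:**
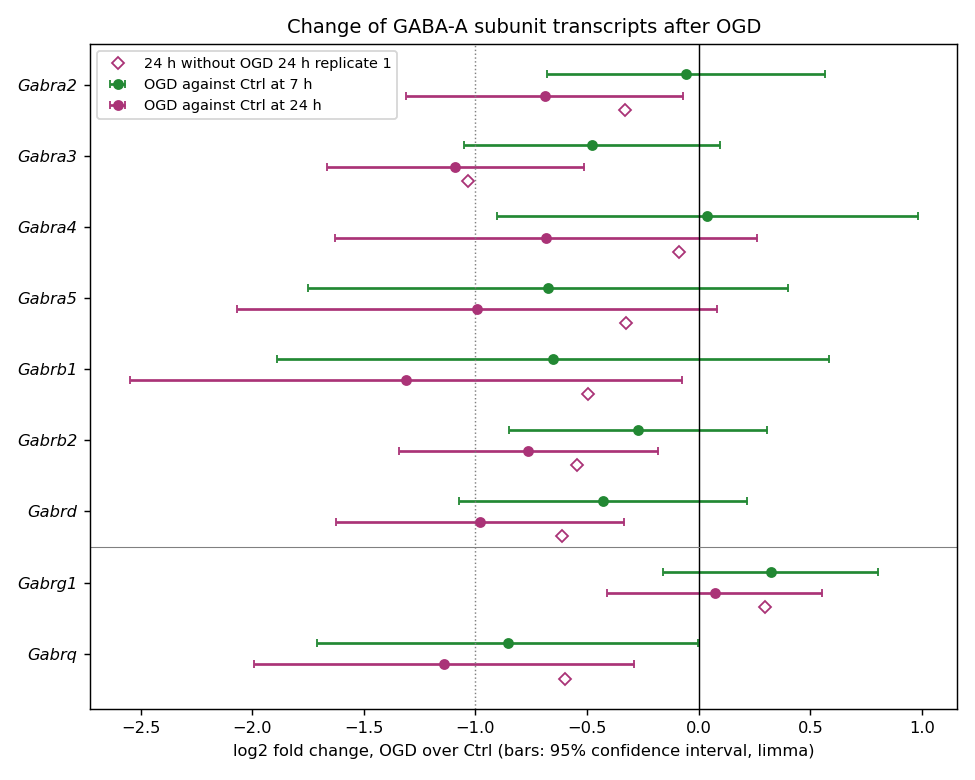
Log2 fold change of OGD over Ctrl (horizontal axis, limma, with 95% confidence intervals) at 7 h (green) and 24 h (purple) for the 7 members (above the line) and for Gabrg1 and Gabrq (below it), with the 24 h value without OGD 24 h replicate 1 as an open diamond and a dotted line at a 2-fold decrease. Gabra3 kept nearly the same value without that array, while the diamonds of Gabra4, Gabra5 and Gabrb1 lay far closer to 0.

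The 2 arrays of each slide were also compared with each other. At 24 h, OGD was below Ctrl on 3 of 3 slides for *Gabra2*, *Gabra3*, *Gabrb1*, *Gabrb2* and *Gabrd*, and on 2 of 3 for *Gabra4* and *Gabra5*. On the slide of replicates 1, the differences ranged from -3.16 for *Gabrb1* to -1.44 for *Gabra3*. On the other slides, both scanned with their arrays together, *Gabra3* differed by -0.66 and -1.18, *Gabrd* by -0.44 and -0.49, and *Gabra2* by -0.36 and -0.23. A fit to the slides of replicates 2 and 3 alone called *Gabra3* (-0.92, adjusted p = 0.700) and *Gabrd* (-0.47, adjusted p = 0.700) lower at 24 h and 0 of 7 members with a fold of 2. In that fit 2.45% of all probes were called lower at 24 h and 0.461% with the fold of 2. At 7 h, OGD was below Ctrl on 3 of 3 slides for *Gabra5*, *Gabrb1*, *Gabrb2* and *Gabrd*, on 2 of 3 for *Gabra2* and *Gabra3*, and on 1 of 3 for *Gabra4*. *Gabrd* was the most even member at 7 h, with -0.38, -0.49 and -0.42.

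**Figure D3:**
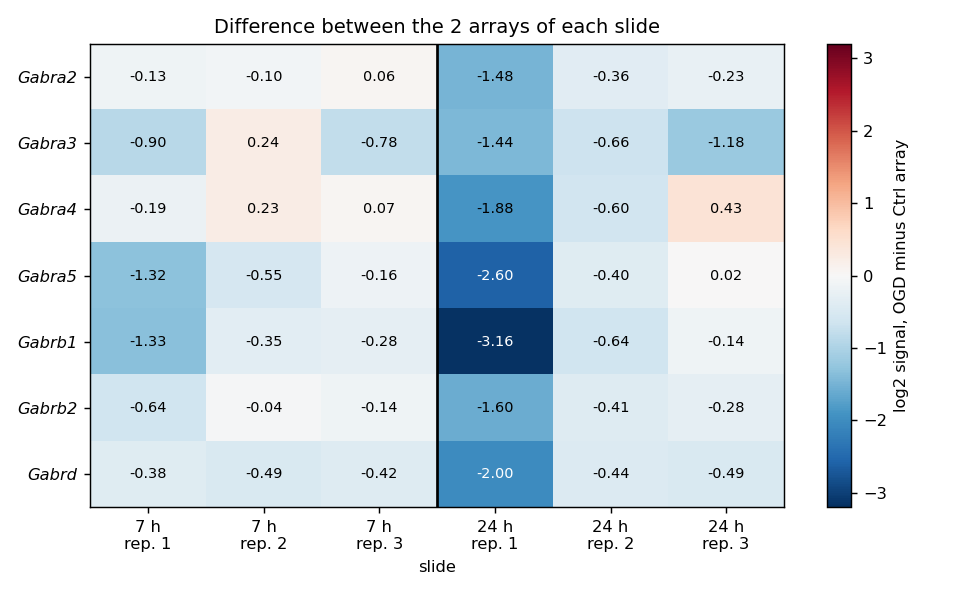
Difference in log2 signal between the OGD and the Ctrl array of each slide (color and number in each cell) for the 7 members (rows) on the 3 slides of 7 h and the 3 slides of 24 h (columns). The column of the 24 h replicates 1 holds the most negative value of every member, from -3.16 to -1.44, and the other 24 h columns run from -1.18 to 0.43.

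The response to OGD was not shown to differ between the times. The difference of the 24 h and the 7 h response ranged from -0.72 (*Gabra4*) to -0.32 (*Gabra5*), and 0 of 7 members were called, where 3.58% of all probes were, with limma p from 0.125 to 0.654 and adjusted p of 1. For *Gabra3* it was -0.61 with a 95% interval of -1.43 to 0.20, which includes both no difference and a 24 h response lower by more than 2-fold. Without OGD 24 h replicate 1 the difference for *Gabra5* was 0.35 and that for *Gabrb1* 0.16, both above 0. In the Ctrl cultures, 0 of 7 members were called between 24 h and 7 h, where 14.7% of all probes were, with differences from -0.20 (*Gabra4*) to 0.68 (*Gabrb1*). The times lay on different slides, so that time and slide cannot be told apart in the Ctrl values.

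Other GABA-A subunit genes were read in the same way. *Gabrq*, the theta subunit, had 24 h signals of 4.51, 4.52 and 4.33 in Ctrl and 2.23, 3.68 and 4.02 in OGD. Its groups did not overlap, with a difference of -1.14 (SE 0.39, adjusted p = 0.290), which was called lower. Without OGD 24 h replicate 1 it was -0.60 (adjusted p = 0.436) and still called. *Gabrq* was also called lower at 7 h, with signals of 3.65, 3.29 and 3.56 in Ctrl and 2.34, 2.65 and 2.92 in OGD and a difference of -0.86 (SE 0.39, adjusted p = 0.420).

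*Gabrg1*, a gamma subunit also found in glial cells, had 24 h signals of 2.33, 2.65 and 2.51 in Ctrl and 2.12, 2.65 and 2.94 in OGD. Its groups overlapped and its difference was 0.07, with a 95% interval of -0.41 to 0.55. *Gabrr2* (adjusted p = 0.295) was called higher at 24 h, but it was not well above background on any Ctrl array and was so on 2 OGD 24 h arrays, so that its signals stood near the detection limit. *Gabra6*, *Gabre*, *Gabrp* and *Gabrr1* were not well above background on any array, and *Gabrg3* and *Gabrr3* were so on 2 and 4 arrays.

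Some subunit genes lie side by side in the rat genome (RefSeq annotation of GRCr8, used here for the order only). Differences between neighbors were not tested. On chromosome 14 the order is *Gabrb1*, *Gabra4*, *Gabra2* and *Gabrg1*, with 24 h differences of -1.31, -0.68, -0.69 and 0.07. On chromosome X, *Gabra3* (-1.09) lies next to *Gabrq* (-1.14).

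The partners of the receptor were read from lists. Of 22 genes for GABA-A receptor clustering and trafficking, 3 were called lower and 1 higher at 24 h (6.19% and 7.51% of all probes were). At 24 h their median difference was -0.36. At 7 h, 1 was called lower and 2 higher (7.03% and 4.79% of all probes were). At 24 h, the 2 called lower with a fold of at least 2 (1.96% of all probes were) were *Nsf* (-1.12, SE 0.40, adjusted p = 0.300) and *Iqsec3* (-1.31, SE 0.50, adjusted p = 0.314). *Nsf* codes for the ATPase that disassembles SNARE complexes and binds trafficking proteins, and *Iqsec3* for a partner of gephyrin at inhibitory synapses. Without OGD 24 h replicate 1 they differed by -0.61 and -0.70 and neither was called, and 1 other gene of the list was called in each direction. In that fit 5.77% of all probes were called lower at 24 h and 1537 of 30367 higher. *Gphn*, the scaffold gephyrin itself, was not among the genes called.

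Of 7 genes for the supply and removal of GABA, 3 were called lower at 24 h and 0 without OGD 24 h replicate 1. At 24 h 6.19% of all probes were called lower with all arrays and 5.77% without that array. At 7 h, 0 of the 7 were called, where 7.03% of all probes were called lower and 4.79% higher. *Gad1* and *Gad2*, the enzymes that make GABA, differed by -1.14 (SE 0.47, adjusted p = 0.332) and -1.14 (SE 0.39, adjusted p = 0.295). Without that array their differences were -0.57 and -0.76. *Gabbr2*, a subunit of the metabotropic GABA-B receptor, was the 1 of 4 genes of that receptor called lower (-1.09, SE 0.47, adjusted p = 0.352), and *Slc12a5*, the KCC2 transporter that keeps neuronal chloride low, the 1 of 2 chloride transporter genes (-1.19, SE 0.52, adjusted p = 0.355). They differed by -0.45 and -0.46, and were not called, without it, when 1 other gene of each list was called, *Kctd16* lower and *Slc12a2* higher. In these 2 lists, 0 genes were called at 7 h. The shares of all probes called lower were those given above. At 24 h without OGD 24 h replicate 1, 1537 of 30367 probes were called higher.

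Of 4 glycine receptor genes, the other family of chloride channels gated by a transmitter, 0 were called at 24 h and 1 in each direction at 7 h, where 7.03% of all probes were called lower and 4.79% higher. *Glra2*, an alpha subunit prominent in developing neurons, was higher by 1.14 at 7 h (SE 0.26, 95% interval 0.56 to 1.72, adjusted p = 0.226). At 24 h it differed by 0.08 (95% interval -0.50 to 0.66). Its mean signal was 5.96 in Ctrl and 7.09 in OGD at 7 h, and 7.18 in Ctrl and 7.27 in OGD at 24 h. The smaller difference at 24 h thus went with a higher Ctrl signal, not with a lower OGD signal.

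Marker genes of the cell types in the cultures were read beside the receptor genes. Of 12 neuronal markers, all well above background on all arrays, 3 were called lower at 7 h and 6 at 24 h, where 7.03% and 6.19% of all probes were, and 0 were called higher. The median 24 h difference of these markers was -0.68. Without OGD 24 h replicate 1, 7 were called lower at 7 h and 3 at 24 h (11.6% and 5.77% of all probes were). The median 24 h difference of these markers was then -0.35. Their mean signal at 24 h was 4.73 to 5.15 on the Ctrl arrays and 3.54 to 4.55 on the OGD arrays, and at 7 h it was 4.61 to 4.96 and 4.01 to 4.61. The mean signal of the 7 members at 7 h was 1.24 to 1.57 on Ctrl and 0.87 to 1.26 on OGD arrays. The mean signal of the 7 members at 24 h was 1.46 to 1.80 and -0.22 to 1.19 on the same arrays. Of 10 interneuron markers, 4 were called lower at 24 h and 0 without OGD 24 h replicate 1 (6.19% and 5.77% of all probes were). The 4 were *Lhx6* and *Gad1*, *Gad2* and *Slc32a1*, the same 3 genes that were called in the list for GABA supply and removal. Of 11 astrocyte markers, 0 were called at 24 h and 2 were called higher at 7 h (4.79% of all probes were). Their mean signal at 24 h was 4.90 to 5.56 on Ctrl and 4.26 to 5.71 on OGD arrays. Of 12 microglial, 10 oligodendrocyte and 12 vascular and fibroblast markers, 0 were called lower at 24 h and 1, 1 and 2 were called higher. At 7 h, 1 microglial marker was called higher, 1 oligodendrocyte marker lower and 1 higher, and 3 vascular and fibroblast markers lower. Of all probes, 6.19% were called lower and 7.51% higher at 24 h, and 7.03% and 4.79% at 7 h. The 3 called lower at 7 h, *Pecam1*, *Cldn5* and *Rgs5*, were well above background on 9, 6 and 1 of 12 arrays. *Ermn*, the oligodendrocyte marker called higher at 7 h, was so on 6, and *Flt1*, a vascular marker called higher at 24 h, on 9. The microglial marker *Ptprc* and the endothelial marker *Tek* were not well above background on any array. The mean signal of the microglial list at 24 h was -1.49 to -1.33 on Ctrl and -1.50 to -0.79 on OGD arrays. In RNA from whole cultures, fewer neurons and less RNA per neuron cannot be told apart, and the part of a shift between neurons and other cells in the members' values was not tested.

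The genes whose signal went most like that of each member over the 12 arrays were named from 10927 genes with 1 symbol that were well above background on all arrays, by Pearson's r. *Gabra2* went with *Scg3* (0.97) and *Cadm2* (0.97), *Gabra3* with *Akap6* (0.88) and *Stx3* (0.88), and *Gabra4* with *Crh* (0.96) and *Psat1* (0.96). *Gabra5* went with *Scamp1* (0.99) and *Tmem229b* (0.99), *Gabrb1* with *Gpr61* (0.99) and *Neurod6* (0.99), *Gabrb2* with *Kcnj12* (0.96) and *Fibcd1* (0.94), and *Gabrd* with *Bace2* (0.96) and *Ephb6* (0.94). *Gabra3* had the lowest such r of the 7 members. These r are descriptions, since the 12 arrays share groups and slides and the array that stood apart weighs on them: without it the r of *Gabra4* with *Crh* was 0.78 and that of *Gabrb1* with *Gpr61* 0.98. Among the 21 pairs of members, r ran from 0.53 to 0.98 with a median of 0.71 over the 12 arrays, and from -0.21 to 0.94 with a median of 0.31 over the 11 without OGD 24 h replicate 1.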

How the data were processed

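Total RNA of the cultures was labeled with Cy3 and hybridized to 12 Agilent rat arrays with probes designed on the rn4 build. The deposited intensity values (processed signals) were made by the authors with Feature Extraction 10.5.1.1, protocol GE1_105_Dec08, which subtracts background and detrends. The authors also deposited log2 values, the same intensities after their median centring.

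From the intensities, spots marked as outliers were removed, values were log2 transformed, repeated spots were averaged per probe and each array was centered on the median of its non-control probes. An array holds 44254 spots, of which 42877 are non-control. Dim probes were kept. Of 30367 probes, 18004 had 1 RefSeq symbol and 12363 were unnamed. Groups came from the sample labels.

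The 4 groups were fitted with limma 3.58.1 (lmFit and eBayes, 2-sided) in R 4.3.3, after tests on simulated data. P-values rest on the spread between the 3 cultures of a group, pooled over the 4 groups and drawn towards that of all probes. They do not measure the spread of the 2 compared groups alone, and 3 cultures per group limit the precision. The members and lists were chosen with earlier results of these data known. The genes named were the 7 members, other subunits with a probe (some are not reported here), the genes of the other inhibitory lists with p under 0.05 and a fold of 2 at either time, and for each member the 2 genes with the highest r. *Gphn*, *Kctd16*, *Slc12a2*, *Ptprc*, *Tek*, *Slc32a1*, *Lhx6*, *Pecam1*, *Cldn5*, *Rgs5*, *Ermn* and *Flt1* were added after their values were seen. *Aldh5a1*, *Kctd12* and *Sox9* of the lists were not found under a named probe. Alternatives were other scalings, normexp (on median signals, as the planned mean signals are not used here), a filter, the authors' values, the methods' t-test, replicate blocks and leaving out arrays.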

Additional observations from a re-analysis of the deposited data

How the results depend on the processing

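With all arrays, limma (unadjusted p under 0.05) called 0 of 7 members lower at 7 h and 5 at 24 h (6.19% of probes). Counts were within 1.5 times of these under 75th percentile scaling, quantile normalization and the dim probe filter. So they were with the authors' values, outlier spots kept and all replicate blocks. The 24 h count was 1 with spike-in scaling (1.72%), 2 with normexp (3.39%) and 1 with the methods' t-test (1.92%). It was 3 with limma on each time alone (2.5%). Slides of replicates 2 and 3 only, chosen after seeing the data, gave 2 (2.45%). With the fold of 2, the 24 h count of 2 became 1 with 75th percentile scaling, spike-in scaling, normexp, the methods' t-test, limma on each time alone and the fixed slide block, and 0 on the slides of replicates 2 and 3. At 7 h the count was 1 with the methods' t-test (*Gabrd*, 9.7%) and 2 with limma on each time alone (*Gabra5*, *Gabrd*, 10.3%). After adjustment the methods' t-test called 0 of 7 at either time. The Ctrl count between times was 7 with spike-in scaling (99.9% lower). It was 1 on the slides of replicates 2 and 3 (4642 of 30367 probes lower, 2581 higher). Leaving out each array in turn gave counts of 0 to 3 at 7 h and 2 to 7 at 24 h (2.49% to 10.8%). It gave 0 to 5 at 24 h with the fold of 2, and 0 to 1 between times for the response and Ctrl. At 7 h the count was 3 without OGD 24 h replicate 1 (11.6%) and 1 without OGD 7 h replicate 2 (5.2%). At 24 h it was 2 without Ctrl 24 h replicate 1 (2.49%) or OGD 24 h replicate 1 (5.77%). It was 3 without Ctrl 24 h replicate 2 (3.58%). With the fold of 2 it was 0 without Ctrl 24 h replicate 1 (0.889%). It was 4 and 5 without OGD 24 h replicates 2 (3.72%) and 3 (4.76%). It was 1 without Ctrl 24 h replicate 3, OGD 24 h replicate 1 or OGD 7 h replicate 3 (0.606% to 2.78%).

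The sign of a difference turned as follows, and the cause was not tested. At 7 h, *Gabra2* was 0.057 with 75th percentile scaling, 0.0457 with quantile normalization and -0.16 to 0.0651 with 1 array left out, *Gabra3* was 0.16 with normexp, *Gabra4* was -0.74 with spike-in scaling, -0.20 with normexp and -0.0236 to 0.15 with 1 array left out, and *Gabrb2* was 0.36 with normexp. At 24 h, *Gabrb2* was 0.0684 with normexp. The difference between times, with 1 array left out, was -0.69 to 0.35 for *Gabra5* and -1.11 to 0.16 for *Gabrb1*. It was 0.16 for *Gabra5* on the slides of replicates 2 and 3. Scaling to the 1 usable spike-in probe moved the median of all probes to -0.83 at 7 h, -1.01 at 24 h and -4.60 between the Ctrl times, and 75th percentile scaling moved it to 0.06 and 0.12 for OGD against Ctrl.

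Replicate numbers did not pair the Ctrl with the OGD arrays of a time by the rule that all pairs correlate above 0.1: deviations from the group means correlated by -0.05, 0.11 and -0.01 on the 7 h slides and 0.08, 0.17 and -0.01 on the 24 h slides, and 1 and 2 of 3 Ctrl arrays correlated best with the array of their own slide. Arrays of replicates 1, 2 and 3 at different times correlated by 0.52, 0.21 and 0.42 in OGD and by 0.26, 0.04 and 0.26 in Ctrl. With the number as replicate block over both times, counts were 0 at 7 h, 5 at 24 h and 0 between times. With the slide as a fixed replicate block they were 0 at 7 h and 4 at 24 h, without *Gabrb1* (adjusted p = 0.421). Gene means over probes were not run, as each member has 1 probe.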
